A study of Mus musculus with 12 samples.

Results

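The 6 genes described here encode the platelet-derived growth factor (PDGF) system, with 4 ligand chains (*Pdgfa*, *Pdgfb*, *Pdgfc* and *Pdgfd*) and 2 receptors (*Pdgfra* and *Pdgfrb*). They were chosen by gene symbol from a table of 18996 genes, and all 6 had a row and passed the filter on low counts, which left 14765 genes. Gene expression was measured by RNA sequencing in 12 samples from BALB/c mice aged 5 to 7 weeks, with 4 samples in each of 3 groups. No operation samples were intact soft tissue from beside the spine. SHAM samples came from mice whose paraspinal soft tissue had been removed while the lamina was left in place, and Laminectomy samples from mice whose lamina had been excised as well. Tissue of both operated groups held scar along with soft tissue and was taken on day 7, and the study used both sexes. The paper counts its RNA sequencing groups in mice, whereas the labels number samples within a group without stating that each is a separate animal. The p-values therefore measure the spread between these samples. Between samples of a group the chi-square per gene ran from 21.5 to 118, and the fitted coefficient of variation between samples was 28.3%. How much of this spread is technical was not tested.

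PDGF chains form disulfide-linked dimers that bring receptor tyrosine kinases together at the cell surface. *Pdgfra* is the receptor for A, B and C chains and marks fibroblasts and the fibro-adipogenic progenitors that lie between muscle fibres. *Pdgfrb* binds B and D chains and is known from pericytes, vascular smooth muscle and fibroblasts. A and B chains are cut to their mature form inside the cell by furin-like convertases, whereas C and D chains leave the cell with a CUB domain that extracellular proteases remove. In wounds the system is known for recruiting fibroblasts and mural cells.

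The sequences just before *Pdgfc* and *Pdgfd* are shown because these CUB-domain ligands moved in opposite directions after laminectomy. Both are from RefSeq on GRCm38.p6, read 5′ to 3′ on the plus strand, and end at the base before the gene's RefSeq start. The windows are chr3:81036166-81036415 for *Pdgfc* and chr9:6168236-6168362 for *Pdgfd*, and neither holds an exon annotated by GENCODE, whose start for *Pdgfd* lies further on. Capitals mark a match of any motif searched.
Pdgfc: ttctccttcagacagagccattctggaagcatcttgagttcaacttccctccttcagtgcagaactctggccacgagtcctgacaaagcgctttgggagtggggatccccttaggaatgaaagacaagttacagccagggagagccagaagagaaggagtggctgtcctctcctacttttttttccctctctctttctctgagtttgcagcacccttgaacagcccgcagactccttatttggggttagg
Pdgfd: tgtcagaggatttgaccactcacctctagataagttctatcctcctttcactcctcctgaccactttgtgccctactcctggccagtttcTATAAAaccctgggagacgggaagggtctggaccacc
The motifs, searched on both strands, were TATAAA for the TATA box, GGGCGG for the GC box of Sp1 factors, CCAAT for the binding site of NF-Y, TGANTCA for AP-1 and GCGTGGG for EGR1, and none of them contains another. The one match was the TATA box of *Pdgfd*, whose first base lies 37 bases before the gene, and 6.68% of 32851 RefSeq promoters held it in a window of the same 127 bases. None of the 5 was in the 250 bases before *Pdgfc*. In windows of 250 bases the share of promoters with a match ran from 4.3% for the EGR1 site to 33.8% for the NF-Y site.

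Libraries held 16802989 to 18077868 counts, and counts for a member in a sample ran from 181 (*Pdgfc*, No operation replicate 4) to 6162 (*Pdgfra*, SHAM replicate 4). Levels are given as CPM, counts scaled to a common library size after adjustment by the trimmed mean of M values (TMM). Skeletal muscle fibre transcripts separated No operation from both operated groups, which overlapped: the summed level of 8 muscle markers was 78340 to 111000 CPM in No operation, 1959 to 7770 CPM in SHAM and 2715 to 11150 CPM in Laminectomy. In bulk tissue, fewer cells of a type and less RNA per cell cannot be told apart. SHAM replicate 1 stood apart, with the lowest muscle sum, the highest macrophage sum (9034 CPM) and the lowest *Pdgfa* and *Pdgfb*. Without it, 3 members were still called in each comparison with No operation.

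Relative to No operation, *Pdgfc*, *Pdgfra* and *Pdgfrb* rose in SHAM tissue, and *Pdgfc* and *Pdgfrb* rose while *Pdgfd* fell in Laminectomy tissue. A gene was called when edgeR's quasi-likelihood test gave a Benjamini-Hochberg adjusted p below 0.05 and its log2 fold change exceeded 0.5 in size. In SHAM against No operation 3 of the 6 members were called, all higher, while 50.8% of all genes tested were called, 25.7% higher and 25.1% lower. In Laminectomy against No operation 2 members were called higher and 1 lower, beside 48.6% of all genes, 24.2% higher and 24.4% lower. These shares lie near those of all genes, so the number of members called does not set the family apart. The median log2 fold change of the members was 0.21 in SHAM and 0.23 in Laminectomy, where the median of all genes tested was -0.0020 and 0.0093. Both comparisons share the No operation samples.

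**Figure D1:**
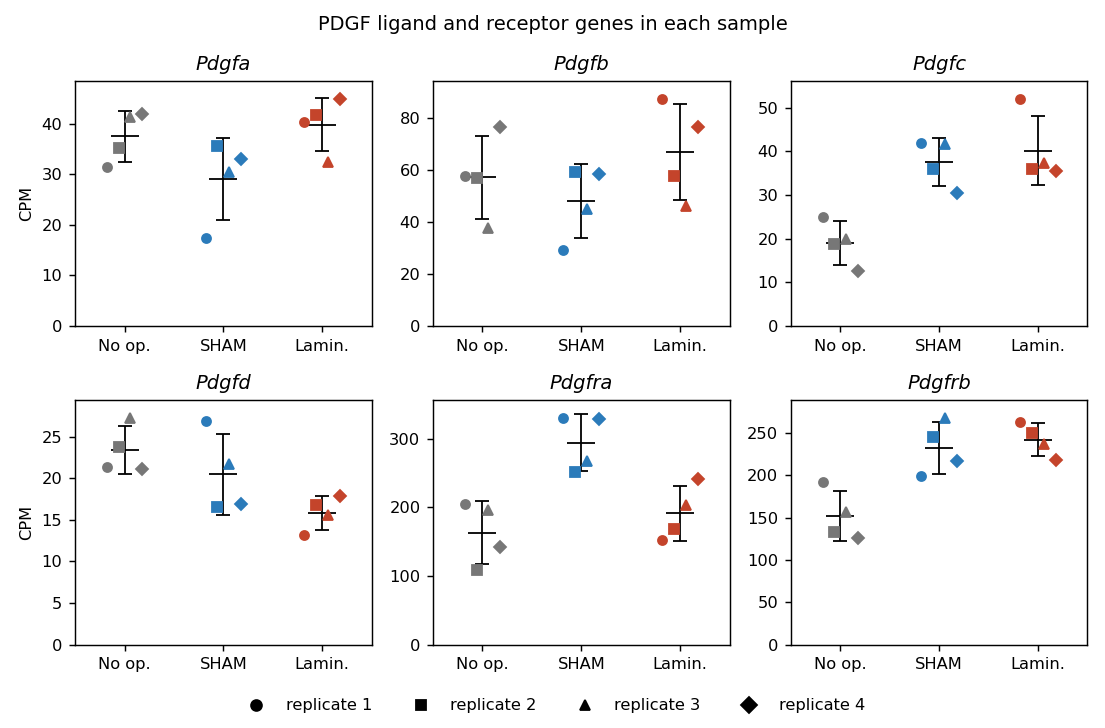
Level of each PDGF gene in CPM (vertical axis, starting at 0) in the 4 samples of No operation (No op.), SHAM and Laminectomy (Lamin.), with the shape of a point giving the replicate number, the long dash the mean and the bars 1 SD either side. Every SHAM and Laminectomy sample lies above every No operation sample for Pdgfc (30.5 to 51.9 against 12.7 to 24.9 CPM) and Pdgfrb (199 to 268 against 126 to 192 CPM), whereas Pdgfa and Pdgfb overlap between all groups.

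*Pdgfa* (identifier 18590, chromosome 5 of GRCm38, 138976014 to 138997370) encodes the A chain, which signals through the alpha receptor. It was at 31.5, 35.3, 41.4 and 42.0 CPM in No operation, 17.5, 35.6, 30.4 and 33.0 CPM in SHAM, and 40.4, 41.7, 32.4 and 44.9 CPM in Laminectomy. The groups overlapped, and SHAM replicate 1 was the lowest sample. Neither operated group passed the test against No operation: the log2 fold change was -0.37 ± 0.197 (SE, n = 4 per group) in SHAM (edgeR, adjusted p = 0.127) and 0.09 ± 0.197 in Laminectomy (edgeR, adjusted p = 0.724). Without SHAM replicate 1 the SHAM difference was -0.18. With library totals alone it was -0.10, and that of Laminectomy was 0.41. None of these passed the test. Exons of an antisense gene overlap 813 bases of its exons.

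*Pdgfb* (identifier 18591, chromosome 15, 79995874 to 80014977) encodes the B chain, which endothelial cells release to attract pericytes. It was at 57.5, 56.8, 37.6 and 76.4 CPM in No operation, 29.0, 59.3, 45.1 and 58.2 CPM in SHAM, and 87.1, 57.5, 46.2 and 76.3 CPM in Laminectomy. Its spread within groups was the widest among the ligands, with a coefficient of variation of 27.5% to 29.5%. The log2 fold change was -0.25 ± 0.273 in SHAM (edgeR, adjusted p = 0.438) and 0.23 ± 0.272 in Laminectomy (edgeR, adjusted p = 0.494), with 95% intervals of -0.85 to 0.34 and -0.37 to 0.82. With library totals in place of TMM, the SHAM difference was 0.02, of the opposite sign, and that of Laminectomy was 0.55. With samples left out in turn, the difference ran from -0.41 to -0.07 in SHAM and from 0.07 to 0.40 in Laminectomy. None of these passed the test.

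*Pdgfc* (identifier 54635, chromosome 3, 81036416 to 81214040) encodes a CUB-domain ligand of the alpha receptor. It was at 24.9, 18.8, 19.8 and 12.7 CPM in No operation, 41.9, 35.9, 41.8 and 30.5 CPM in SHAM, and 51.9, 35.9, 37.2 and 35.5 CPM in Laminectomy. No operated sample was as low as the highest No operation sample, a separation shown by 54.5% of all genes in SHAM and 55.9% in Laminectomy. *Pdgfc* rose 1.97-fold in SHAM (log2 fold change 0.98 ± 0.199, edgeR, adjusted p = 0.0013). It rose 2.11-fold in Laminectomy (log2 fold change 1.07 ± 0.199, edgeR, adjusted p = 0.00078). The two-sided exact permutation test on log2 CPM gave p = 0.0286 in each, the smallest value that 4 against 4 samples allow. Exons of an antisense gene overlap 147 bases of its exons.

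*Pdgfd* (identifier 71785, chromosome 9, 6168584 to 6378850) encodes the other CUB-domain ligand, which acts on the beta receptor. It was at 21.4, 23.7, 27.3 and 21.2 CPM in No operation, 26.9, 16.5, 21.7 and 16.9 CPM in SHAM, and 13.2, 16.7, 15.6 and 17.9 CPM in Laminectomy. All Laminectomy samples were below all No operation samples, while SHAM samples overlapped both. In Laminectomy it fell by 0.56 ± 0.167 on the log2 scale (edgeR, adjusted p = 0.0126, exact permutation p = 0.0286). This call ended when No operation replicate 3 or Laminectomy replicate 1 was left out (log2 fold change -0.48 in both, edgeR, adjusted p = 0.0405 and 0.0386) and with library totals alone (-0.24, edgeR, adjusted p = 0.223). In SHAM the log2 fold change was -0.19 ± 0.166 (edgeR, adjusted p = 0.337), and 0.05 with library totals alone.

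*Pdgfra* (identifier 18595, chromosome 5, 75152292 to 75198215) encodes the alpha receptor. It was at 205, 108, 196 and 142 CPM in No operation, 331, 251, 267 and 329 CPM in SHAM, and 152, 168, 203 and 241 CPM in Laminectomy. Every SHAM sample was above every sample of the other groups, which overlapped each other. *Pdgfra* rose 1.81-fold in SHAM (log2 fold change 0.85 ± 0.214, edgeR, adjusted p = 0.00466, exact permutation p = 0.0286). In Laminectomy the log2 fold change was 0.23 ± 0.212 with a 95% interval of -0.23 to 0.69 (edgeR, adjusted p = 0.370), and with library totals alone it was 0.57 and passed the test (edgeR, adjusted p = 0.0293). Antisense and other genes on the opposite strand overlap 456 and 166 bases of its exons, and a miRNA gene on the same strand overlaps 30 bases. None of the overlapping genes of the members is in the table. The paper gives counting with default settings, which do not use strand. Some deposited counts are not whole, so whether strand was used for them is not known. Reads of opposite strands may have been counted together.

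*Pdgfrb* (identifier 18596, chromosome 18, 61045150 to 61085061) encodes the beta receptor. It was at 192, 133, 157 and 126 CPM in No operation, 199, 245, 268 and 217 CPM in SHAM, and 264, 251, 237 and 218 CPM in Laminectomy. All operated samples exceeded all No operation samples, although SHAM replicate 1 was only a little above No operation replicate 1. It rose 1.53-fold in SHAM (log2 fold change 0.61 ± 0.146, edgeR, adjusted p = 0.00344) and 1.59-fold in Laminectomy (0.67 ± 0.146, edgeR, adjusted p = 0.00209), and the exact permutation p was 0.0286 in each.

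**Figure D2:**
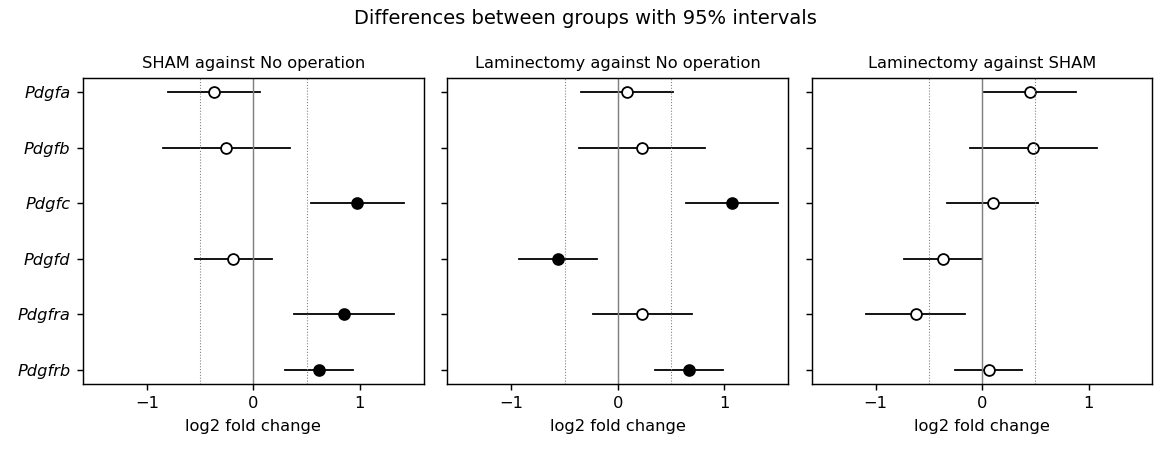
Log2 fold change of each PDGF gene (horizontal axis) in the 3 comparisons, with 95% intervals as lines, filled points for genes that were called and dotted lines at 0.5 either side of 0. Filled points are Pdgfc (0.98), Pdgfra (0.85) and Pdgfrb (0.61) in SHAM and Pdgfc (1.07), Pdgfd (-0.56) and Pdgfrb (0.67) in Laminectomy, and no point is filled between Laminectomy and SHAM.

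Laminectomy and SHAM tissue were compared to ask what excision of the lamina added to the soft tissue operation. No member was called, nor was any of the 14765 genes (0%) by edgeR. Unadjusted p-values below 0.05 were found for 3 members (*Pdgfa*, *Pdgfd* and *Pdgfra*) and for 16.0% of all genes. DESeq2 called 4.35% of the 15995 genes to which it gave an adjusted p and none of the members. The median log2 fold change of the members was 0.08, and that of all genes 0.0037. *Pdgfra* was the one member whose groups did not overlap, a separation seen in 10.1% of all genes. It was lower in Laminectomy by a log2 fold change of -0.62 ± 0.213 with a 95% interval of -1.09 to -0.16 (edgeR, p = 0.0131, adjusted p = 0.198, exact permutation p = 0.0286), so it did not pass the adjusted test. *Pdgfa* differed by 0.45 ± 0.197 (edgeR, adjusted p = 0.291), *Pdgfb* by 0.48 ± 0.272 (edgeR, adjusted p = 0.412) and *Pdgfd* by -0.37 ± 0.166 (edgeR, adjusted p = 0.303). For *Pdgfc* the 95% interval of the difference was -0.33 to 0.52, and for *Pdgfrb* it was -0.26 to 0.38, so differences of up to those sizes remained possible.

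Levels per length, in CPM per kilobase of all annotated exons of a gene joined, allowed genes to be ranked within a group. By this measure *Pdgfrb* led every group, at 27.7 ± 5.44 (SD, n = 4) in No operation, 42.4 ± 5.56 in SHAM and 44.2 ± 3.54 in Laminectomy. *Pdgfra* followed at 16.3 ± 4.58, 29.4 ± 4.12 and 19.1 ± 3.94. The order of the receptors depends on the length used, 10024 bases for *Pdgfra* and 5478 for *Pdgfrb*. By mean CPM without length, *Pdgfra* was the higher receptor in No operation (163 against 152) and SHAM (294 against 232). In Laminectomy it was the lower (191 against 242). In No operation the samples of *Pdgfra*, *Pdgfb* (13.7 ± 3.81) and *Pdgfa* (10.1 to 13.5 across samples) overlapped, *Pdgfd* lay below them at 7.42 ± 0.906, and *Pdgfc* was lowest at 3.74 ± 0.983. In SHAM all 4 ligands overlapped with their neighbours in the order *Pdgfb* (6.98 to 14.3 across samples), *Pdgfa* (9.34 ± 2.58), *Pdgfc* (7.37 ± 1.07) and *Pdgfd* (6.50 ± 1.54), and both receptors stood above them. In Laminectomy *Pdgfra* overlapped with *Pdgfb* (16.1 ± 4.41) and *Pdgfb* with *Pdgfa* (10.4 to 14.4), while *Pdgfc* (7.88 ± 1.55) and *Pdgfd* (5.02 ± 0.636) each lay below the gene before. *Pdgfc* thus stood below *Pdgfd* in No operation and above it in Laminectomy. As a share of ligand transcripts per length, *Pdgfc* made up 6.08% to 13.7% in No operation, 16.7% to 28.1% in SHAM and 15.4% to 21.7% in Laminectomy. *Pdgfd* made up 16.4% to 24.8%, 13.8% to 29.1% and 8.66% to 14.6%.

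The ratio of *Pdgfc* to *Pdgfd* counts within a sample does not depend on library scaling. It was 1.16, 0.793, 0.727 and 0.600 in No operation, 1.56, 2.17, 1.92 and 1.80 in SHAM, and 3.93, 2.14, 2.39 and 1.98 in Laminectomy. Every operated sample exceeded every No operation sample. On the log2 scale the mean ratio was higher by 1.22 in SHAM, or 2.32-fold, and by 1.66 in Laminectomy, or 3.15-fold. The exact permutation p was 0.0286 in each, or 0.0857 after Benjamini-Hochberg adjustment over the 6 ratio tests, so neither passed. As 0.0286 is the smallest p that 4 against 4 samples allow and the other tests lay above it, neither could pass at any size. Laminectomy and SHAM overlapped, with a log2 difference of 0.44 (exact permutation p = 0.0857, adjusted p = 0.129).

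The ratio of *Pdgfrb* to *Pdgfra* counts was 0.936, 1.24, 0.799 and 0.883 in No operation, 0.602, 0.975, 1.01 and 0.661 in SHAM, and 1.73, 1.49, 1.17 and 0.905 in Laminectomy. All groups overlapped. On the log2 scale Laminectomy exceeded SHAM by 0.70 (exact permutation p = 0.0857, adjusted p = 0.129). Against No operation the log2 differences were -0.27 in SHAM (exact permutation p = 0.286) and 0.44 in Laminectomy (exact permutation p = 0.171). Per length, *Pdgfra* made up 30.7% to 40.6% of receptor transcripts in No operation, 35.2% to 47.6% in SHAM and 24.0% to 37.7% in Laminectomy. These shares depend on the exon lengths used.

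**Figure D3:**
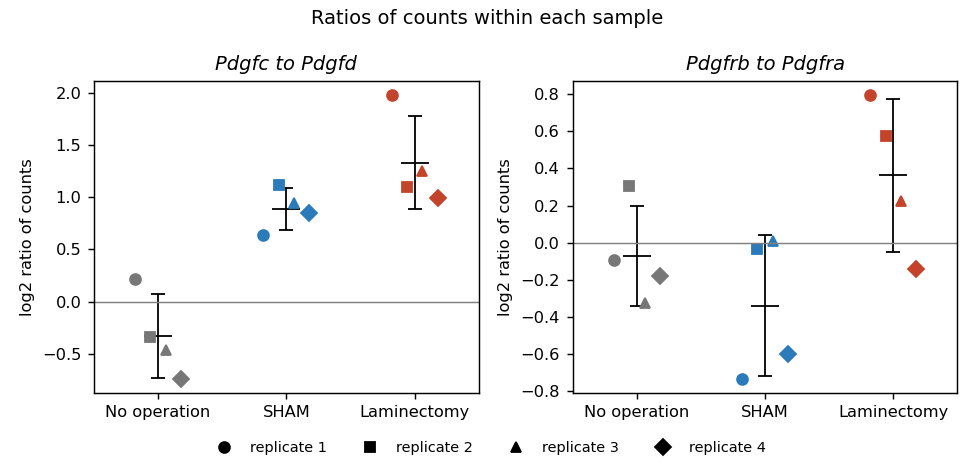
Log2 ratio of counts (vertical axis) of Pdgfc to Pdgfd and of Pdgfrb to Pdgfra within each sample of the 3 groups, with the shape of a point giving the replicate number, the long dash the mean and the bars 1 SD either side. The Pdgfc to Pdgfd ratio of all 8 operated samples lies above that of the 4 No operation samples, and Laminectomy replicate 1 is highest at 1.98, whereas the Pdgfrb to Pdgfra ratios overlap between all groups.

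Cell type markers moved between the same groups, and their counts are to be read beside the 25.7% of all genes called higher and 25.1% called lower in SHAM, and 24.2% and 24.4% in Laminectomy. The summed level of 10 fibroblast markers was 6927 to 20230 CPM in No operation, 40500 to 57820 CPM in SHAM and 36620 to 42430 CPM in Laminectomy, and none was at 0. By edgeR, 4 of the 10 were called higher and 1 lower in SHAM, and 5 higher and 3 lower in Laminectomy. The sum was mostly the collagen genes *Col1a1* and *Col3a1*, which made up 38.5% to 79.6% of it in No operation, 92.3% to 93.3% in SHAM and 92% to 96.2% in Laminectomy and were called higher in both operated groups. The other 8 markers summed to 4130 to 6853, 2865 to 4427 and 1484 to 2943 CPM. Much of that remainder was *Dcn*, at a mean of 3286 of 4844 CPM in No operation, 1710 of 3572 CPM in SHAM and 990.4 of 2368 CPM in Laminectomy. The direction of a fibroblast sum therefore depended on which abundant genes it held, and among the 8, *Lum* and *Thy1* were called higher in both operated groups and *Fap* in Laminectomy, while *Dcn* was called lower in both and *Pi16* and *Cd34* in Laminectomy. Sums without the 2 most abundant genes of a list were added after the data were seen. *Lum*, a collagen-binding proteoglycan, rose by a log2 fold change of 0.79 and 1.03, whereas *Dcn*, another proteoglycan of fibroblasts, changed by -0.94 and -1.73. The 10 mural cell markers summed to 1287 to 1837 CPM in No operation, 615.5 to 919.5 CPM in SHAM and 662.4 to 1005 CPM in Laminectomy, with none at 0. *Rgs5* and *Abcc9* made up 61% to 69.2%, 28.9% to 36.3% and 31.7% to 48.4% of this sum, and the other 8 markers overlapped between the groups, at 464.7 to 566.4, 437.4 to 601.9 and 413.2 to 518.2 CPM. Of these 10, 2 (*Cd248* and *Ndufa4l2*) were called higher and 7 lower in SHAM, and 0 higher and 4 lower in Laminectomy. The pericyte gene *Rgs5* changed by -1.56 and -1.19. *Cspg4*, which encodes the NG2 proteoglycan, changed by -0.82 in SHAM and was at 0.27 in Laminectomy without passing the test. The *Pdgfrb* increase thus stood beside lower *Rgs5* and *Abcc9* and higher *Col1a1* and *Col3a1*. *Rgs5* and *Abcc9* fell in the same groups as the muscle fibre markers, and bulk tissue does not show which cells their transcripts came from. Other fibroblast markers moved in both directions. The part of fibroblasts, mural cells or muscle fibres in the *Pdgfrb* increase was not tested.

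The 10 endothelial markers, none at 0, summed to 877.8 to 1117 CPM in No operation, 653.4 to 898.2 CPM in SHAM and 600.4 to 926.9 CPM in Laminectomy, with 0 called higher and 3 lower (*Tek*, *Vwf* and *Kdr*) in each operated group, near the 25.1% and 24.4% of all genes called lower. Their first members *Pecam1* and *Cdh5*, both of endothelial junctions, were at log2 fold changes between -0.14 and -0.04 in SHAM and Laminectomy and did not pass the test. The 8 macrophage markers, none at 0, summed to 707.6 to 1965, 4869 to 9034 and 3512 to 5889 CPM, with 8 called higher in SHAM and 7 in Laminectomy and none lower. *Cd68* rose by 2.92 and 2.61 and *Adgre1* by 2.55 and 1.76 on the log2 scale. The 8 platelet and megakaryocyte markers summed to 31.6 to 176.6, 184 to 573.8 and 145.8 to 262 CPM. None was at 0 throughout a group, though some were at 0 in a No operation sample. Of the 8, 1 was called higher (*Pf4*) and 1 lower (*Gp1ba*) in each operated group. Without *Pf4* and *Ppbp*, the other 6 summed to 11.49 to 78.62, 10.61 to 21.77 and 23.55 to 38.46 CPM, and No operation overlapped with both operated groups. The platelet chemokine gene *Pf4*, which macrophages also express, rose by 3.15 and 2.14, while *Itga2b*, the platelet integrin, did not pass the test (-0.997 and -0.24). All 8 muscle markers were called lower in both, with *Acta1* at -3.52 and -3.08 and *Ckm* at -4.37 and -3.86. Since *Pdgfra* also marks oligodendrocyte progenitors, 8 genes of that lineage were summed: 70 to 112.3 CPM in No operation, 40.24 to 158.7 CPM in SHAM and 33.66 to 656.4 CPM in Laminectomy, the highest being Laminectomy replicate 2. Only 5 of them passed the filter, not including *Olig1* and *Olig2*, 1 of the 5 (*Gpr17*) was called lower in each operated group, and 1 of the 8 was at 0 throughout No operation and SHAM. Marker genes named beyond the first 2 of each list (*Col1a1*, *Col3a1*, *Thy1*, *Fap*, *Pi16*, *Cd34*, *Abcc9*, *Cd248*, *Ndufa4l2*, *Tek*, *Vwf*, *Kdr*, *Gp1ba*, *Ppbp* and *Gpr17*) were picked after their values were seen. The part of these cell types in the members' levels was not tested.

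**Figure D4:**
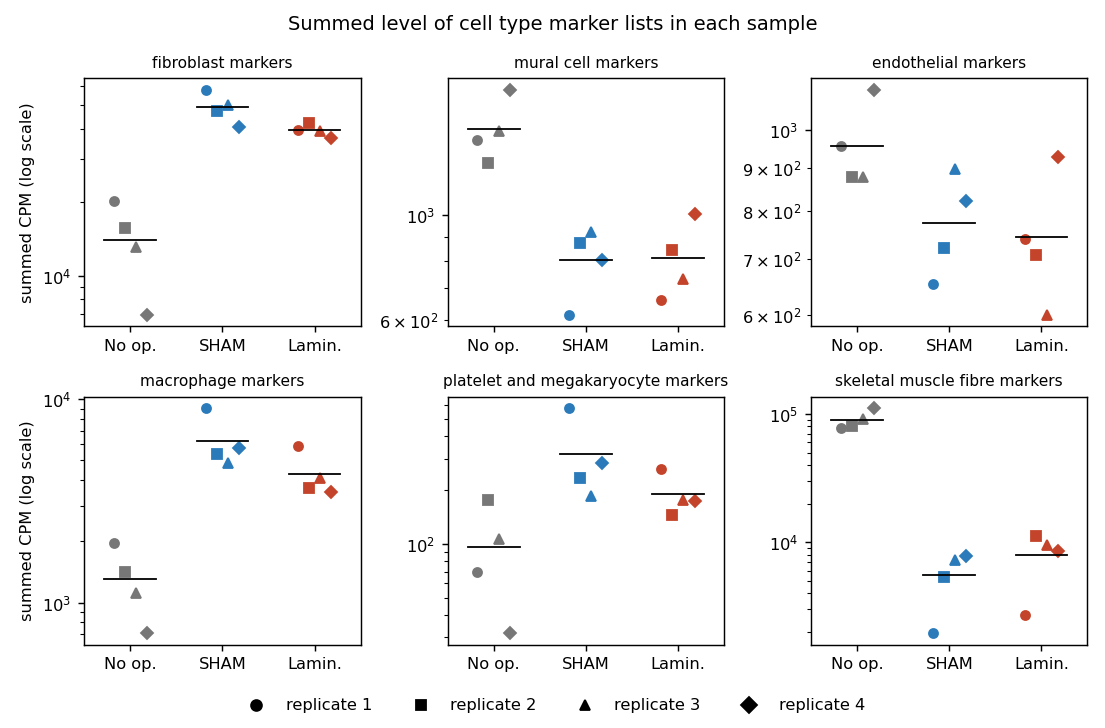
Summed CPM (vertical axis, log scale) of marker gene lists for 6 cell types in each sample of No operation (No op.), SHAM and Laminectomy (Lamin.), with the shape of a point giving the replicate number and the line the group mean. Macrophage and fibroblast sums are higher and muscle and mural sums lower in all operated samples, but the fibroblast sum is mostly Col1a1 and Col3a1 (at least 92% in operated samples) and the mural sum without Rgs5 and Abcc9 overlaps between groups. SHAM replicate 1 has the lowest muscle sum (1959) and the highest macrophage sum (9034).

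Genes that act around the receptors were followed in lists. Of 12 genes for ligand processing and binding, 9 were called higher and 1 lower in SHAM, and 5 higher and 1 lower in Laminectomy, with a median log2 fold change of 1.07 and 0.69. Over all genes tested, 50.8% were called in SHAM (25.7% higher) and 48.6% in Laminectomy (24.2% higher), so the 6 of 12 called in Laminectomy are near the share of all genes. The convertase gene *Pcsk5* rose by 2.43 ± 0.507 in SHAM, from a mean of 49.7 to 267 CPM, and was at 0.73 ± 0.485 in Laminectomy, where it did not pass the test (mean 82.2 CPM). *Bmp1*, a procollagen proteinase with CUB domains, rose by 1.99 ± 0.178 in SHAM and 1.51 ± 0.176 in Laminectomy. *Sparc*, a matricellular protein that binds PDGF, rose by 1.25 ± 0.250 and 1.11 ± 0.249. The convertase gene *Pcsk6* changed in the other direction, by -2.17 ± 0.248 and -1.82 ± 0.245. *Plat*, the tissue plasminogen activator that cuts the C chain, rose by 1.39 ± 0.295 and 0.79 ± 0.292, and *Plau*, the urokinase that cuts the D chain, by 0.71 ± 0.116 and 0.66 ± 0.116. These 2 genes were picked after their values were seen.

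Of 23 genes for signalling next to the receptor, 5 were called higher and 3 lower in SHAM and 4 higher and 3 lower in Laminectomy, beside 50.8% and 48.6% of all genes called in either direction, and the median log2 fold change was 0.05 and 0.06. The kinase gene *Src* rose by 1.36 ± 0.212 and 1.65 ± 0.213. *Stat5b*, a transcription factor gene, changed by -1.44 ± 0.127 and -1.69 ± 0.128, and *Pik3r1*, the regulatory subunit of PI 3-kinase, by -1.37 ± 0.227 and -1.54 ± 0.228. Of 10 genes that damp receptor signalling, 5 were higher and 3 lower in SHAM and 4 higher and 3 lower in Laminectomy, with medians of 0.42 and 0.40, where all genes had 25.7% higher and 25.1% lower in SHAM and 24.2% and 24.4% in Laminectomy. The phosphatase genes *Ptprj* (1.68 and 1.10) and *Ptpn1* (1.50 and 1.02) rose. *Lrig1*, a membrane inhibitor of receptor kinases, changed by -1.24 and -1.57, and the Sprouty gene *Spry4* by -1.03 and -0.72.

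Of 16 early genes known to be induced by PDGF in fibroblasts, which other stimuli induce too, 10 were called higher and 2 lower in SHAM and 11 higher and 1 lower in Laminectomy, with medians of 1.71 and 1.65, beside 25.7% and 24.2% of all genes called higher. The AP-1 gene *Fosl1* rose by 4.33 ± 0.933 and 2.46 ± 0.907, from a mean of 0.530 CPM to 10.7 and 2.91 CPM. *Ccl2*, a monocyte chemokine, rose by 3.31 ± 0.737 and 2.41 ± 0.715, and *Has2*, a hyaluronan synthase, by 2.62 ± 0.380 and 2.94 ± 0.383. The nuclear receptor gene *Nr4a1* changed by -2.37 ± 0.677 and -1.66 ± 0.660, and *Hbegf*, an EGF-family ligand, by -0.92 ± 0.260 in SHAM, and the latter was at -0.26 ± 0.256 in Laminectomy without passing the test. Among 15 related ligands and receptors of the VEGF, KIT and CSF1 families, 5 were higher and 8 lower in SHAM and 3 higher and 8 lower in Laminectomy, with medians of -0.61 and -0.65, beside 25.1% and 24.4% of all genes called lower. The VEGF-family ligand gene *Pgf* rose by 1.90 ± 0.425 and 1.06 ± 0.420. *Vegfd*, another such ligand, rose by 1.89 ± 0.406 in SHAM and was at 0.17 ± 0.400 in Laminectomy without passing the test. The macrophage receptor gene *Csf1r* rose by 1.89 ± 0.272 and 1.30 ± 0.268, and the hematopoietic receptor gene *Flt3* by 1.31 ± 0.449 and 1.17 ± 0.448. The ligand gene *Vegfb* changed by -1.90 ± 0.195 and -2.11 ± 0.196, the VEGF receptor gene *Flt1* by -1.82 ± 0.171 and -1.75 ± 0.171, and *Vegfa* by -1.27 ± 0.351 and -2.38 ± 0.364. In none of the 5 lists was a gene called between Laminectomy and SHAM by edgeR, with 1 to 5 genes of each list at an unadjusted p below 0.05 and 0 to 2 called by DESeq2.

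**Figure D5:**
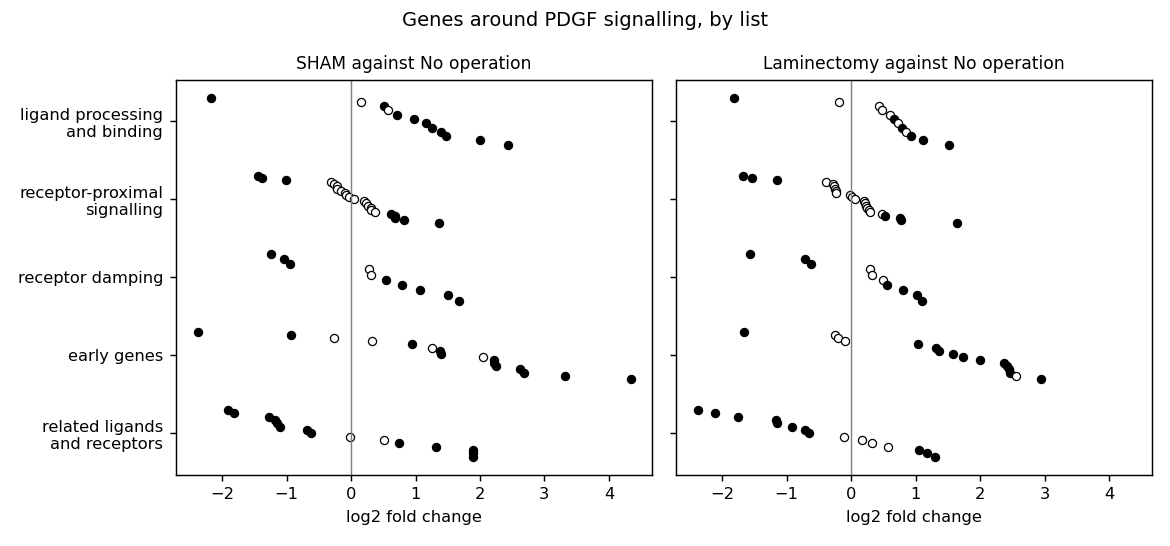
Log2 fold change (horizontal axis) of each gene in 5 lists around PDGF signalling, in SHAM and in Laminectomy against No operation, with genes of a list spread vertically in order of value and filled points for genes that were called. Most called genes of the ligand processing and early gene lists lie right of 0 (9 of 10 and 10 of 12 in SHAM), most of the related ligands and receptors lie left (8 of 13 in SHAM), and the signalling and damping lists lie on both sides.

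Likeness to each member was measured as the root mean square difference of centred log2 CPM over the 12 samples, where smaller values mean more alike. Nearest to *Pdgfc* were *Arf4* (0.130), *Tram1* (0.132) and *Stt3a* (0.152). *Pdgfrb* was nearest to *Pus7l* (0.0996), *Gga2* (0.105) and *Pprc1* (0.116), and *Pdgfra* to *Tanc2* (0.206), *Atp8b1* (0.207) and *Rhoj* (0.208). *Pdgfa* lay closest to *Pald1* (0.110), *Mmp15* (0.142) and *Mphosph9* (0.160). For *Pdgfb* they were *N4bp3* (0.214), *Efna1* (0.232) and *Eva1a* (0.257), and for *Pdgfd* *Sgce* (0.122), *Gab1* (0.136) and *Fbxl20* (0.137). Among the members themselves, *Pdgfc* and *Pdgfrb* were closest (0.266), followed by *Pdgfa* and *Pdgfb* (0.295). The ligands *Pdgfc* and *Pdgfd* were among the farthest apart (0.766), as were *Pdgfb* and *Pdgfra*. All samples share their group differences, so genes that move between tissues are alike by this measure.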

How the data were processed

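RNA was sequenced from 12 samples as stranded, poly(A)-selected, paired-end libraries. Per the labels, the authors aligned reads with STAR 2.6.1b to GRCm38 (mm10) and used featureCounts 2.0.1 and DESeq2 1.30.1, and the annotation used for counting is not given in the sources used here. The authors deposited estimated counts per gene, not normalized. Of 18996 genes, 2933 had a value that was not whole, none of them a PDGF member, and values were rounded before testing, although whole counts had been assumed when the tests were designed. The table held 0 columns of other samples. The paper gives 3 mice per group without naming them, and all 4 samples were used.

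Genes were filtered by filterByExpr, scaled by TMM and fitted over all 12 samples by edgeR 4.0.16 (glmQLFit, R 4.3.3) with Benjamini-Hochberg adjustment. The standard error is the log2 fold change divided by the square root of F. DESeq2 1.42.0 was an alternative. Log2 CPM used a prior count of 2, and ratios a pseudocount of 0.5 counts. Exon lengths were from GENCODE vM21 (GRCm38) and cover all annotated exons of a gene joined. Reads carried no molecular identifiers, so counts are of reads and not of molecules. The common dispersion of the fit was 0.0799, a coefficient of variation between samples of 28.3%.

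The members and gene lists were chosen with earlier results of these data known. Named were all members, the 3 genes nearest to each, for each pathway list the 2 called genes with the largest increase and the 2 with the largest decrease against No operation, and the first 2 genes of each marker list. *Plat*, *Plau* and other marker genes were named after their values were seen. One gene that this rule names is not reported here.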

Additional observations from a re-analysis of the deposited data

Results flagged for a closer look

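Among 24 sets of 4 values examined (6 genes and 2 ratios in 3 groups), 1 sample lay far from the others of its group. *Pdgfc* in Laminectomy replicate 1 was at 51.9 CPM, while the other Laminectomy samples were between 35.5 and 37.2 CPM, and its gap to the nearest made up 0.895 of the group's range against a critical value of 0.829. Chance gives about 1 such set in 20. Without this sample *Pdgfc* remained called in Laminectomy against No operation.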

How the results depend on the processing

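Member calls were recomputed with DESeq2, other scalings, no filter, the compared groups alone, a replicate block, other fold limits and each sample left out. Of 360 member values so obtained, 347 kept their direction and side of the threshold. This count overstates what was tested. Each left-out sample was counted in all 3 comparisons, also in the one it is not part of, where it acts only through the shared fit. Other fold limits used the same fit, so the direction could not change. With a minimum log2 fold change of 1, members called fell from 3 to 0 in SHAM and from 3 to 1 (*Pdgfc*) in Laminectomy against No operation. Library totals alone moved the median log2 fold change of all genes by 0.255 in SHAM and 0.319 in Laminectomy, and the share of calls that were higher from 50.6% to 66% and from 49.8% to 69.9%. Under it *Pdgfb* (0.017) and *Pdgfd* (0.054) reversed in SHAM, *Pdgfd* lost its call in Laminectomy (-0.24) and *Pdgfra* gained one (0.57). Against SHAM, *Pdgfrb* in Laminectomy ranged from -0.0012 (without SHAM replicate 1) to 0.135 and *Pdgfc* from -0.052 (without Laminectomy replicate 1) to 0.159 when samples were left out, and both were positive otherwise. Leaving samples out gave 3 members called in SHAM, 2 to 3 in Laminectomy and 0 between them. DESeq2 called 696 genes between Laminectomy and SHAM where edgeR called 0.

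Equal replicate numbers were not treated as pairs, because the labels tie them to no shared animal or batch and 7, not all, of 12 correlations of same-numbered samples exceeded 0.1 (-0.228 to 0.352). In 6 of the 12 the sample correlated best with its own number, so some pairing is not excluded. With the replicate block 3, 3 and 0 members were called in SHAM and Laminectomy against No operation and between them. The ratio differences had the same sign with a pseudocount of 5 counts and with 1 sample less. None had passed the test, and with 3 against 4 samples the exact p cannot go below 0.0571, so nothing follows for their calls. The lowest counts were 181 for *Pdgfc* and 249 for *Pdgfd*.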

Other observations

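Among No operation samples, replicate 4 had the highest muscle marker sum (111000 CPM), the lowest fibroblast marker sum (6927 CPM) and the lowest *Pdgfc* and *Pdgfrb* (12.7 and 126 CPM). Without *Col1a1* and *Col3a1* the fibroblast sum of replicate 4 was 4262 CPM, and those of the other replicates were 4130, 4133 and 6853 CPM. Replicate 1 had the lowest muscle sum (78340 CPM), the highest fibroblast sum (20230 CPM) and the highest *Pdgfc*, *Pdgfra* and *Pdgfrb* (24.9, 205 and 192 CPM), although its fibroblast sum without both collagens was the lowest. Replicate 2, next in fibroblast sum (15690 CPM), had the lowest *Pdgfra* (108 CPM) and the second lowest *Pdgfrb* (133 CPM).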
